A study of Mus musculus with 9 samples.

Results

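The genes described here are 10 markers of the cells that surround the seminiferous tubule and its vessels. The contractile members, Acta2, Myh11, Cnn1 and Tagln, are markers of the smooth muscle-like peritubular myoid cells. Tcf21 and Pdgfra mark stromal cells and their precursors, and Pecam1, Cdh5, Kdr and Tek mark endothelium. They were measured by RNA-seq in 9 mouse libraries, 3 each of spermatogonial stem cells (SSC), iPSC derived from SSC (SSCiPSC) and iPSC derived from fetal fibroblasts (fiPSC). Members were found by the position of a locus in the table of expression values against the GRCm38 annotation. The table holds 54913 usable loci, of which 13664 could be named for 12159 genes, and 9 of the 10 members were among them. Tagln was not and is described separately.

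All 3 groups came from 1 mouse model, Gt(ROSA)26Sortm1(rtTA*M2)Jae Col1a1tm3(tetO-Pou5f1,-Sox2,-Klf4,-Myc)Jae/J. In these animals doxycycline switches on the reprogramming factors from a cassette at Col1a1. SSC were taken at passage 0 from testes of pups in the first week after birth, by differential plating and a magnetic sort for the surface receptor Gfra1. The sort enriches cells and does not make a pure population. The iPSC were clonal lines at passage 10 to 11 by the labels, whereas the study's methods give later passages. They were grown in embryonic stem cell medium with LIF and, by the labels, doxycycline, which the study's methods describe as withdrawn at earlier passages. Feeder cells were present in the cultures, and the methods describe a sort for SSEA1 to lower the feeder content. The labels do not say whether replicates were separate animals, cultures or lines, so p-values measure the spread between these libraries.

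Peritubular myoid cells form a thin contractile sheath around each tubule and move its contents. Smooth muscle genes such as Acta2 and Myh11 are switched on by serum response factor with its coactivator myocardin. Endothelial cells line the vessels of the interstitium. They sense VEGF through Kdr and angiopoietins through Tek, and hold to each other through Cdh5 and Pecam1. Neither cell type is of the germ line, although pluripotent cells of the mouse are known to carry Pecam1.

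The receptor used for the sort was detected in SSC, and a pluripotency factor in iPSC. SSC libraries also carried markers of other testis cells, given further below. Gfra1 was at 37.7, 34.1 and 23.9 FPKM (fragments per kilobase of transcript, scaled to the total of the library) in SSC replicates 1, 2 and 3 and at no more than 0.171 FPKM in iPSC. Nanog, a pluripotency factor, was listed at 0 in all 3 SSC libraries and was between 270.2 and 483 FPKM in the 6 iPSC libraries. SSC libraries were shallow. In units of 1000000 fragments, the depth estimated from the steps between low values was 1.76, 4.6 and 1.38 in SSC replicates 1, 2 and 3, against 13.2 to 17.6 in iPSC. One fragment per kilobase of transcript was thus worth 0.568, 0.217 and 0.726 FPKM in SSC replicates 1, 2 and 3 and at most 0.0756 FPKM in iPSC.

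In both comparisons with SSC, 6 of the 9 members with a locus were lower in iPSC, 1 was higher and 2 did not pass the test. The 6 were Acta2, Myh11, Tcf21, Pdgfra, Cdh5 and Kdr, the higher gene was Pecam1, and the others were Cnn1 and Tek. Calls are from limma on log2(FPKM + 1) across all loci, with a Benjamini-Hochberg adjusted p below 0.05. A locus was tested if it reached 1 FPKM in 3 libraries of the pair. Myh11, Tcf21, Cdh5 and Kdr reached this in SSC alone, so the filter itself fixed their direction. Of all loci tested, 24.1% were lower and 26.2% higher in SSCiPSC, and 23.7% were lower and 28.0% higher in fiPSC. These shares include loci without a gene name, and named genes were called more often. With 1 locus per named gene, 3308 of 10337 were lower and 3864 higher in SSCiPSC. In fiPSC 3471 of 10447 were lower and 4002 higher. In that fit 7 of the 9 members were lower and 1 higher in each comparison. The median log2 fold change of the 9 members was -2.83 in each comparison, beside 0.11 over 36544 loci for SSCiPSC and 0.17 over 38007 loci for fiPSC. Both comparisons share the SSC libraries and are given side by side. In such bulk RNA, fewer cells of a type and less RNA per cell cannot be told apart.

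**Figure D1:**
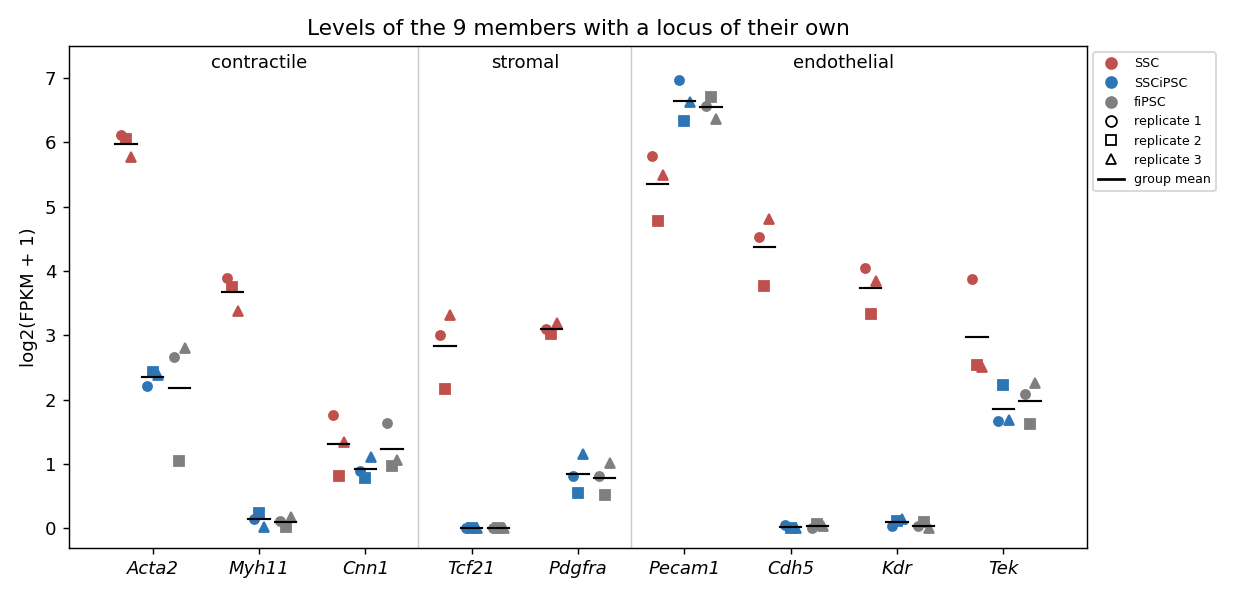
Levels of the 9 members with a locus of their own, as log2(FPKM + 1), in each of the 9 libraries (red SSC, blue SSCiPSC, grey fiPSC; circle, square and triangle for replicates 1, 2 and 3; bar, group mean). Acta2, Myh11, Tcf21, Pdgfra, Cdh5 and Kdr sit lower in all 6 iPSC libraries, Pecam1 sits higher in all 6, Tek is lower in all 6 by a small margin, and Cnn1 overlaps.

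Acta2 (ENSMUSG00000035783.9, locus at chr19:34241327-34255430, minus strand, GRCm38), the smooth muscle alpha-actin, was the most abundant of the members in SSC after scaling for length. It was at 68.1, 65.5 and 53.9 FPKM in SSC replicates 1, 2 and 3. The SSCiPSC values were 3.63, 4.42 and 4.24 FPKM, and the fiPSC values 5.34, 1.07 and 6.01 FPKM. The lowest SSC library was thus 8.97 times the highest iPSC library, and the means were 62.5 ± 7.58 FPKM in SSC and 4.12 ± 1.71 FPKM over all iPSC (SD, n = 3 and 6). On the log2(FPKM + 1) scale Acta2 fell by 3.63 (SE 0.16, limma adjusted p = 5.05e-05) in SSCiPSC. It fell by 3.81 (SE 0.47, limma adjusted p = 0.000986) in fiPSC, where replicate 2 lay far below its group. That library was also the lowest of the fiPSC for the collagen gene Col1a2 (5.82, 1.63 and 8.36 FPKM in fiPSC replicates 1, 2 and 3) and for Dcn, a matrix proteoglycan (4.74, 1.68 and 5.86 FPKM). Both are on the list of fibroblast and feeder genes, which summed to 306, 276 and 360 FPKM in fiPSC replicates 1, 2 and 3. Of its 10 genes with a locus, 8 were lowest in fiPSC replicate 2. The most abundant ones were not, since Vim was at 119.6, 122 and 172 FPKM and Fn1 at 146, 142 and 141 FPKM. The part of these genes' source in the Acta2 level was not tested. Without fiPSC replicate 2 the fall was 3.24 on the log2 scale.

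Actins are close to each other in sequence, so reads can be shared. Of 1986 windows of 50 bases in the longest Acta2 transcript, 7 (0.352%) were also present in Actg1, and 0 were present in Acta1, Actb, Actc1 or Actg2. Only 3 of the 6 actin genes had a locus of their own. Actb, the cytoplasmic beta-actin, was at 2337, 2321 and 2349 FPKM in SSC and did not pass the test in either comparison (log2 fold changes 0.32 and 0.24, limma adjusted p = 0.265 and 0.279). Actc1, the cardiac actin, was at 2.79, 1.07 and 1.02 FPKM in SSC and was lower in SSCiPSC (log2 fold change -1.31) and fiPSC (-1.19).

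Myh11 (ENSMUSG00000018830.10, chr16), the smooth muscle myosin heavy chain, was split into a pair of loci. The locus with the higher mean, at chr16:14194562-14220055, was at 13.9, 12.4 and 9.39 FPKM in SSC replicates 1, 2 and 3. No iPSC library exceeded 0.183 FPKM, so that the lowest SSC value was 51.3 times the highest iPSC value. The log2 fold change was -3.53 (SE 0.26, limma adjusted p = 0.000176) in SSCiPSC and -3.57 (SE 0.23, limma adjusted p = 0.000132) in fiPSC. The other locus, at chr16:14220190-14291389, showed the same order, with a mean of 10.4 ± 1.88 FPKM in SSC (SD, n = 3) and at most 0.184 FPKM in iPSC. The non-muscle heavy chains had smaller log2 fold changes. Myh9 was at 118, 107 and 111 FPKM in SSC and did not pass the test in SSCiPSC (log2 fold change -0.14, limma adjusted p = 0.51), whereas it was lower by a small amount in fiPSC (-0.32, limma adjusted p = 0.0395). Myh10 passed in neither comparison, and Myh14 was higher in both (log2 fold changes 1.19 and 1.37).

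Cnn1 (ENSMUSG00000001349.5, locus at chr9:22099243-22108802, plus strand), smooth muscle calponin, did not differ beyond its spread. It was at 2.39, 0.762 and 1.53 FPKM in SSC. The SSCiPSC values were 0.847, 0.717 and 1.16 FPKM, and those of fiPSC 2.12, 0.959 and 1.10 FPKM. The groups overlapped in both comparisons. The log2 fold change was -0.38 (95% interval -1.08 to 0.32, limma adjusted p = 0.325) in SSCiPSC and -0.08 (95% interval -0.87 to 0.71, limma adjusted p = 0.858) in fiPSC, and in fiPSC its sign turned under median-ratio scaling (0.06). The SSC values rest on an estimated 9, 8 and 5 fragments, and those of iPSC on 22 to 63. The intervals leave room for a moderate difference in either direction. Its relatives were more abundant. Cnn2 was at 25.2, 24.4 and 24.5 FPKM in SSC and passed in neither comparison, and Cnn3, at 145, 165 and 163 FPKM in SSC, was lower in fiPSC (log2 fold change -0.32, limma adjusted p = 0.0302) and did not pass in SSCiPSC (0.20, limma adjusted p = 0.207).

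Tagln, transgelin or SM22, lies in an interval at chr9:45863138-45936072 that also holds Rnf214 on the same strand and Pcsk7 on the other. The table has a pair of minus-strand loci for this interval and gives each the interval's coordinates, so neither could be assigned to Tagln. One was at 14.6, 15.9 and 10.9 FPKM in SSC, 7.01, 10.8 and 9.36 FPKM in SSCiPSC and 8.76, 8.25 and 8.36 FPKM in fiPSC. The other was at 11.4, 11.0 and 12.3 FPKM in SSC, 3.46, 2.76 and 2.97 FPKM in SSCiPSC and 3.61, 2.37 and 3.01 FPKM in fiPSC. Both lay lower in iPSC, the second beyond the spread in every library and in both tests (log2 fold changes -1.64 and -1.67, limma adjusted p = 0.000792 and 0.000693). For the first the log2 fold changes were -0.56 (limma adjusted p = 0.0862) and -0.63 (limma adjusted p = 0.0238). Tagln2, a relative found in many cell types, was at 124, 120.1 and 124 FPKM in SSC and was lower in SSCiPSC (log2 fold change -0.65) and fiPSC (-0.49). Tagln3 was below 1 FPKM in all 9 libraries and was not tested.

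Of the 10 members, 6 have an entry in the RefSeq table of promoters (GRCm38.p6), and the sequence before the start is shown for the contractile genes Acta2, which fell, and Cnn1, which did not pass the test. Each line gives the 250 bases before the start, 5′ to 3′ on the gene's strand, at chr19:34255374-34255623 for Acta2 and chr9:22099003-22099252 for Cnn1. Capitals mark CArG-like boxes, the site type of serum response factor, searched on both strands as CC, 6 bases of which at most 1 is C or G, and GG.
Acta2: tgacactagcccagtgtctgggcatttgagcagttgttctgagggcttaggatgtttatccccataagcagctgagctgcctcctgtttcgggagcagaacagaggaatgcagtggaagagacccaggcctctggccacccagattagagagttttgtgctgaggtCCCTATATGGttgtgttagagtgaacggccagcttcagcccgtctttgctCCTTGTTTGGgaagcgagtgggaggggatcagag
Cnn1: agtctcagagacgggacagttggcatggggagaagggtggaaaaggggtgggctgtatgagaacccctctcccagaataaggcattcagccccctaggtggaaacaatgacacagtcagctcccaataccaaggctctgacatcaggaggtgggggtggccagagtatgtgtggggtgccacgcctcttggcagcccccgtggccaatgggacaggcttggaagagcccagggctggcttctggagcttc
Acta2 held 2 such boxes, starting 84 and 34 bases before the start, and Cnn1 held 0. These starts are those of RefSeq. The annotation used for naming begins Acta2 further upstream, at 34255590, so both boxes lie inside that gene. The measured loci begin within the stretches shown, at 34255430 for Acta2 and 22099243 for Cnn1, and the nearer Acta2 box lies inside the measured locus. Of the other 4 members with an entry, Kdr held 1, starting 236 bases before the start. Of all 32851 promoters of this length, 8.59% held at least 1. The strict CArG box, with all 6 middle bases A or T and counted within the looser one, was in 1.47% of promoters and in neither of these.

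**Figure D2:**
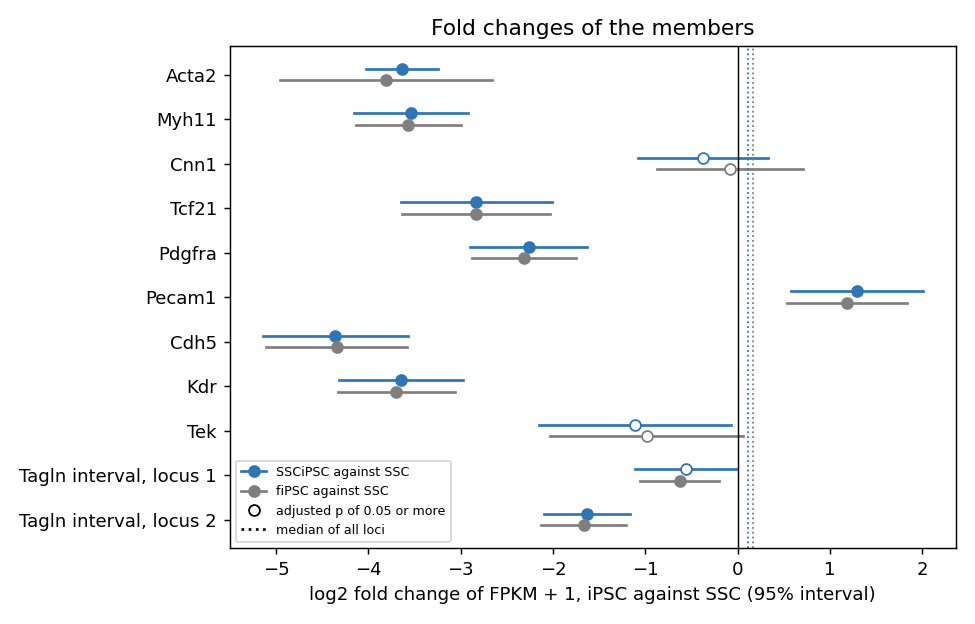
Log2 fold change of FPKM + 1 with its 95% interval for the 9 members and for the 2 loci of the interval that holds Tagln, in SSCiPSC (blue) and fiPSC (grey) against SSC. Filled points passed the test; dotted lines mark the median of all loci (0.11 and 0.17). Cdh5 has the lowest values (-4.36 and -4.34) and only Pecam1 lies to the right of the dotted lines (1.29 and 1.19).

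The stromal members were low but clear in SSC. Tcf21 (ENSMUSG00000045680.8, locus at chr10:22817301-22820135, minus strand), a helix-loop-helix factor of mesenchymal precursors, was at 7.01, 3.5 and 8.96 FPKM in SSC replicates 1, 2 and 3 and was listed at 0 in all 6 iPSC libraries. Its log2 fold change was -2.83 in both comparisons (SE 0.34 and 0.33, limma adjusted p = 0.000822 and 0.00077). The added value of 1 limits how far such a gene can fall on this scale, and with 0.1 in its place the value was -5.94 in both. Pdgfra (ENSMUSG00000029231.15, locus at chr5:75151580-75197447, plus strand), the alpha receptor for PDGF, was the most even of the members across SSC, at 7.57, 7.08 and 8.15 FPKM. It remained detectable in iPSC, at 0.767, 0.457 and 1.23 FPKM in SSCiPSC and 0.758, 0.432 and 1.03 FPKM in fiPSC. The lowest SSC library was 5.78 times the highest iPSC library, and the log2 fold changes were -2.26 (SE 0.26, limma adjusted p = 0.000747) and -2.32 (SE 0.23, limma adjusted p = 0.000434). Annotated antisense genes overlap Tcf21 and Pdgfra, and whether the authors counted by strand is not given in the sources used here, so their reads could not be told apart.

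Among the factors related to Tcf21, the pattern was mixed. Tcf15, which acts in somites and in pluripotent cells leaving the naive state, was higher in SSCiPSC (log2 fold change 1.76) and fiPSC (1.37). Msc, also called MyoR, did not pass the test in either comparison (limma adjusted p = 0.431 and 0.0534). Tcf24 was tested in fiPSC alone (log2 fold change -1.18, limma adjusted p = 0.124), and Tcf23 was too low to be tested.

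Pecam1 and Cdh5, both adhesion molecules of endothelial junctions, moved in opposite directions. Pecam1 (ENSMUSG00000020717.19, locus at chr11:106654189-106750307, minus strand) was at 54.6, 26.6 and 44.1 FPKM in SSC, 125, 79.6 and 98.3 FPKM in SSCiPSC and 93.7, 104 and 81.3 FPKM in fiPSC. All 6 iPSC libraries lay above the highest SSC library, and the iPSC mean was 2.32 times the SSC mean. The log2 fold change was 1.29 (SE 0.30, limma adjusted p = 0.0113) in SSCiPSC and 1.19 (SE 0.27, limma adjusted p = 0.0109) in fiPSC. This call was lost after quantile normalization (0.61 and 0.63, limma adjusted p = 0.197 and 0.16) and, for fiPSC, without fiPSC replicate 2 (1.10, limma adjusted p = 0.052). Cdh5 (ENSMUSG00000031871.9, locus at chr8:104101378-104144510, plus strand), VE-cadherin, was at 22.2, 12.6 and 27.2 FPKM in SSC. In iPSC it was listed at 0 in 3 libraries and at no more than 0.0458 FPKM in the others, an estimated 3 fragments or fewer. It had the lowest fold change of the members, -4.36 (SE 0.33, limma adjusted p = 0.000193) in SSCiPSC and -4.34 (SE 0.31, limma adjusted p = 0.000168) in fiPSC. An annotated antisense gene also overlaps the start of Cdh5.

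The other classical cadherins with a locus differed in direction. Cdh2, N-cadherin, which joins Sertoli and germ cells, was at 64.0, 54.1 and 53.4 FPKM in SSC and at most 0.429 FPKM in iPSC. Cdh1, E-cadherin of epithelia and pluripotent cells, was at 13.6, 7.92 and 9.32 FPKM in SSC and rose in both (log2 fold changes 3.43 and 3.76). Cdh11, a mesenchymal cadherin, was lower in both (-1.45 and -1.64). Cdh3, P-cadherin, was higher in fiPSC (0.78, limma adjusted p = 0.00697) and did not pass in SSCiPSC (0.04, limma adjusted p = 0.879).

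Kdr and Tek, the receptor tyrosine kinases of the endothelial members, differed in how far SSC lay above iPSC. For Pdgfra, a receptor kinase of the stromal members, the lowest SSC library was 5.78 times the highest iPSC library. Kdr (ENSMUSG00000062960.10, locus at chr5:75932692-75978492, minus strand), VEGF receptor 2, was at 15.6, 9.06 and 13.3 FPKM in SSC and at no more than 0.103 FPKM in iPSC. The lowest SSC library was 88.0 times the highest iPSC library, and the log2 fold changes were -3.64 (SE 0.28, limma adjusted p = 0.000201) and -3.70 (SE 0.26, limma adjusted p = 0.000158). Tek (ENSMUSG00000006386.15, locus at chr4:94735367-94874978, plus strand), the angiopoietin receptor Tie2, was at 13.6, 4.83 and 4.68 FPKM in SSC. In SSCiPSC it was at 2.17, 3.68 and 2.22 FPKM, and in fiPSC at 3.26, 2.06 and 3.78 FPKM. The groups did not overlap, but SSC replicate 1 stood well above the other 2 SSC libraries, and the lowest SSC value was only 1.24 times the highest iPSC value. Tek did not pass the test (log2 fold change -1.11, 95% interval -2.16 to -0.07, limma adjusted p = 0.0728 in SSCiPSC, and -0.99, 95% interval -2.03 to 0.06, limma adjusted p = 0.101 in fiPSC). It passed when 1 locus was kept per named gene (limma adjusted p = 0.0243 and 0.0445), and without SSC replicate 1 its log2 fold changes shrank to -0.67 and -0.54. Of all loci tested, 59.8% did not overlap between SSCiPSC and SSC and 61.6% between fiPSC and SSC, beside 8 of the 9 members in each. For Myh11, Tcf21, Cdh5 and Kdr this was fixed in advance, since they passed the filter of 1 FPKM through the SSC libraries alone.

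The sequence before the RefSeq start is shown for this pair because both encode endothelial receptor kinases and their levels in iPSC differ. The measured Tek locus begins further upstream, at 94735367, so the stretch shown lies inside it. The measured Kdr locus begins at 75978492, within the last bases of its stretch. Each line gives 250 bases from RefSeq (GRCm38.p6), 5′ to 3′ on the gene's strand, at chr5:75978456-75978705 for Kdr and chr4:94739039-94739288 for Tek. Capitals mark GGAA on either strand (TTCC on the printed one), the core of the sites of ETS factors such as Erg and Fli1.
Kdr: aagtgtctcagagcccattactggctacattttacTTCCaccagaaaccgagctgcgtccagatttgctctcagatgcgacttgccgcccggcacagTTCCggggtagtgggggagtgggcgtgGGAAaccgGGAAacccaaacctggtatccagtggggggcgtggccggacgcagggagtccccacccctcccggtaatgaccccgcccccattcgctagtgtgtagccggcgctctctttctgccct
Tek: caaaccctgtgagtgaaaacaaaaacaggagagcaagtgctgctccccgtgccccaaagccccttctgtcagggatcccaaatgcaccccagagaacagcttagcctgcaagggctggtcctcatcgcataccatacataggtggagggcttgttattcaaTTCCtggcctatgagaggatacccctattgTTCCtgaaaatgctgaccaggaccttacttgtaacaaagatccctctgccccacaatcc
Kdr held 4 cores and Tek 2, beside a median of 3 over all promoters, of which 93.4% held at least 1. Members outside the endothelial group held them too, with 7 in Tcf21, 4 in Pdgfra and 3 each in Acta2 and Cnn1. Kdr also held 2 GC boxes (GGGCGG on either strand), a letter string present in 32.7% of promoters, and Tek held 0.

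Between fiPSC and SSCiPSC only 4 of the 9 members were expressed enough to be tested, and 0 passed (limma). At an unadjusted p under 0.05 the count was also 0. Of all 33948 loci tested, 0.0678% passed. The log2 fold changes were -0.10 for Pecam1 (95% interval -0.53 to 0.32), -0.17 for Acta2 (-1.23 to 0.88), 0.13 for Tek (-0.47 to 0.72) and 0.30 for Cnn1 (-0.25 to 0.85). These intervals leave room for differences of moderate size in either direction, most of all for Acta2. The other 5 members stayed below the filter of 1 FPKM in at least 3 libraries.

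Further genes of smooth muscle followed the contractile members in part. Of 20 listed genes, 14 had a locus and 13 were tested, of which 9 were lower and 0 higher in SSCiPSC, and 10 were lower and 0 higher in fiPSC. Their median log2 fold change was -1.97 in SSCiPSC and -1.85 in fiPSC. Tpm1, a tropomyosin, was at 199, 225 and 239 FPKM in SSC and had log2 fold changes of -1.81 and -1.80. Cald1, caldesmon, had log2 fold changes of -2.18 and -1.94, and Filip1l, which binds filamin, had log2 fold changes of -3.81 and -3.49. Flna, the filamin of most cell types, did not pass in SSCiPSC (-0.22, limma adjusted p = 0.353) and was lower in fiPSC (-0.43, limma adjusted p = 0.00989). Mylk, the myosin light chain kinase, was singled out after its values were seen, since it stood at 17.1, 19.3 and 21.2 FPKM in SSC and at no more than 0.307 FPKM in iPSC.

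Regulators of these genes were also mostly lower. Of 17, 12 were tested, of which 9 were lower and 1 higher in SSCiPSC, and 8 were lower and 2 higher in fiPSC, with medians of -1.30 and -1.25. Srf, serum response factor itself, was at 38.1, 43.8 and 39.6 FPKM in SSC and fell by 1.17 in each comparison. Its coactivator Mrtfb (Mkl2) had log2 fold changes of -1.32 and -1.06, and Tead1, a partner of the YAP coactivator, had log2 fold changes of -1.29 and -1.34. Foxf1, a forkhead factor of mesenchyme around epithelia, was at 22.1, 26.0 and 18.5 FPKM in SSC and at most 0.162 FPKM in iPSC. Dhh, the hedgehog ligand that Sertoli cells send to their neighbours, was at 14.7, 13.3 and 9.78 FPKM in SSC and at most 0.469 FPKM in iPSC. Its receptor Ptch1 was higher in fiPSC (0.61, limma adjusted p = 0.0129) and did not pass in SSCiPSC (0.29, limma adjusted p = 0.252). Gli1, a target gene of the pathway, was higher in both (1.35 and 1.42).

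Pericytes wrap small vessels and share genes with smooth muscle. Of 9 listed genes 6 had a locus, and 4 were lower and 2 higher in each comparison. Mcam, an adhesion molecule, was at 129, 107 and 111 FPKM in SSC and had log2 fold changes of -1.40 and -1.31. Rgs5, a regulator of G protein signalling, was at 22.3, 9.85 and 19.5 FPKM in SSC and at most 0.0657 FPKM in iPSC. Pdgfrb, the beta receptor for PDGF, had log2 fold changes of -1.56 and -1.5. The 2 higher genes were Ndufa4l2, a mitochondrial protein induced by low oxygen (1.97 and 2.23), and Notch3, a receptor of the Notch pathway (0.97 and 1.91), the latter named after its values were seen.

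Endothelial genes beyond the members were mostly lower in iPSC as well. Of 30 listed genes, 25 had a locus and 20 were tested, and in each comparison 14 were lower and 1 was higher, with medians of -1.75 and -1.55. Erg, an ETS factor of endothelium, was at 21.8, 19.1 and 22.2 FPKM in SSC and at most 0.0988 FPKM in iPSC. Cd34, a surface sialomucin, had log2 fold changes of -3.62 and -3.24, Flt1, VEGF receptor 1, had log2 fold changes of -2.41 and -2.35, and Ptprb, the phosphatase VE-PTP, had log2 fold changes of -2.72 and -2.87. Emcn, Lyve1 and Gpihbp1 were listed at 0 in all 6 iPSC libraries. In SSC replicates 1, 2 and 3 Emcn was at 7.52, 2.61 and 3.5 FPKM and was called lower in both comparisons. Lyve1 (1.78, 0.682 and 2.28 FPKM) and Gpihbp1 (0.627, 2.64 and 0 FPKM) were too low in SSC to be tested. The higher gene was Egfl7, a secreted protein, at 4.79, 3.48 and 4.22 FPKM in SSC and 18.2 to 21.8 FPKM in iPSC (log2 fold changes 2.0 and 2.08). Emcn, Lyve1, Gpihbp1 and Egfl7 were named after their values were seen.

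**Figure D3:**
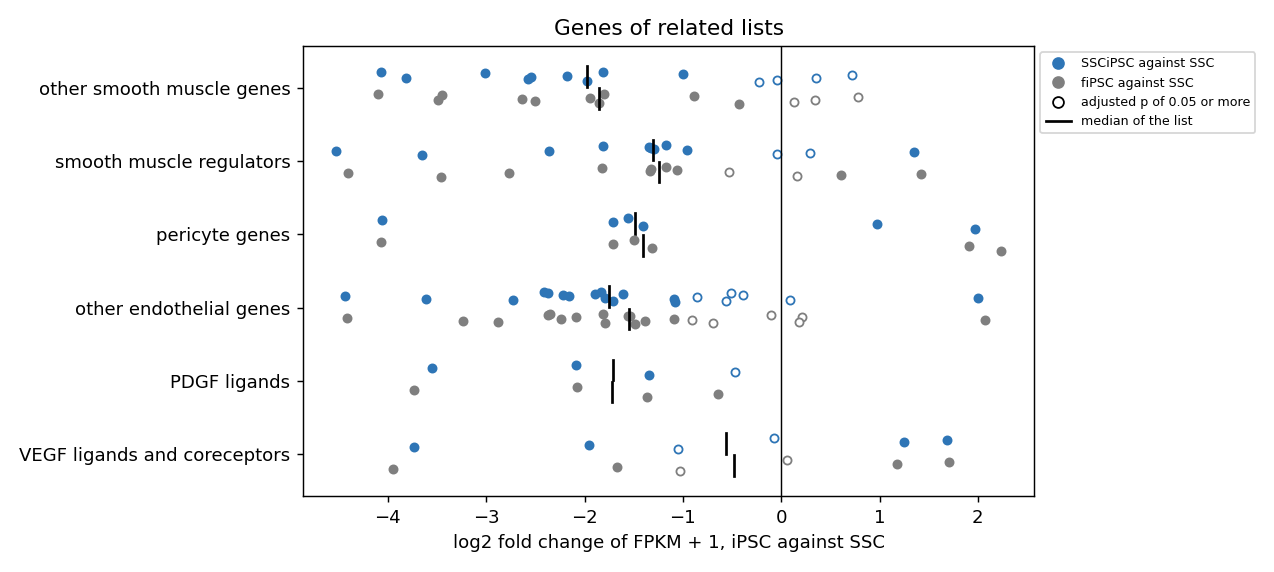
Log2 fold change of FPKM + 1 of the tested genes of 6 related lists, in SSCiPSC (blue) and fiPSC (grey) against SSC. Filled points passed the test and black bars are list medians, which lie between -1.97 and -1.25 for the first 5 lists and at -0.56 and -0.48 for the VEGF ligands and coreceptors.

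Ligands of the member receptors were on lists of their own. All 4 PDGF ligands had a locus, and 3 were lower in SSCiPSC and 4 in fiPSC. Pdgfa was at 67.6, 73.3 and 103 FPKM in SSC and fell by 2.08 in both comparisons, and Pdgfb was at 37.5, 41.6 and 46.7 FPKM and had log2 fold changes of -3.55 and -3.73. Pdgfd was also lower (-1.35 and -1.36), whereas Pdgfc was lower in fiPSC (-0.65, limma adjusted p = 0.0347) and did not pass in SSCiPSC (-0.47, limma adjusted p = 0.213).

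For the VEGF ligands and coreceptors, 2 of the 6 tested genes were lower and 2 higher in each comparison. Vegfa, the main ligand of Kdr, was at 26.8, 27.8 and 84.4 FPKM in SSC and passed in neither (log2 fold change -0.07, limma adjusted p = 0.933, and 0.06, limma adjusted p = 0.927). Vegfb (1.69 and 1.71) and Vegfc (1.24 and 1.18) were higher. The coreceptor Nrp1 had log2 fold changes of -3.74 and -3.94, and the placental ligand Pgf had log2 fold changes of -1.96 and -1.66, whereas Nrp2 did not pass (limma adjusted p = 0.0721 and 0.0677). Vegfd (Figf) was not tested. The angiopoietins, ligands of Tek, were low. Angpt1 and Angpt4 did not exceed 0.789 FPKM in any library, and Angpt2 had no locus of its own.

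The members did not vary together across the 3 SSC libraries. Cdh5, Kdr, Pecam1 and Tcf21 were lowest in SSC replicate 2, at 61.0%, 71.7%, 63.6% and 54.0% of their SSC mean, as was the contractile gene Cnn1 (48.8%). Tek, the remaining endothelial member, was at 176.7%, 62.7% and 60.6% of its mean in SSC replicates 1, 2 and 3. Of 25 other endothelial genes, 21 were also lowest there, and their summed level was 147, 92.4 and 141 FPKM in SSC replicates 1, 2 and 3. Acta2 and the Myh11 locus with the higher mean were lowest in SSC replicate 3 (86.2% and 78.9% of the mean), whereas the other Myh11 locus, at 12.4, 8.67 and 10.2 FPKM in SSC replicates 1, 2 and 3, was lowest in replicate 2. Pdgfra hardly moved, between 93.2% and 107.2%. SSC replicate 2 was also the deepest SSC library. Calls over the members were the same, 6 lower and 1 higher, when any 1 SSC library was left out.

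Markers of other testis cells moved with these libraries too. The germ line list, 13 of 14 genes with a locus and Dazl its most abundant, summed to 790, 974 and 663 FPKM in SSC replicates 1, 2 and 3. The macrophage list (6 of 8 genes, C1qa the most abundant) summed to 55.3, 19.6 and 158.5 FPKM. The fibroblast list (10 of 11 genes, Vim the most abundant) summed to 456, 418 and 869 FPKM. Cdh5, Kdr and Pecam1 were thus lowest in SSC replicate 2, where germ line genes were highest, as were Tcf21, Cnn1 and Pdgfra. Acta2 and the Myh11 locus with the higher mean were lowest in SSC replicate 3, where germ line genes were lowest. Tek was about as low in SSC replicate 2 (62.7% of its SSC mean) as in SSC replicate 3 (60.6%). The Leydig list (4 of 8 genes, Cyp11a1 the most abundant) summed to 164, 132 and 255 FPKM, and the Sertoli list (9 of 11 genes, Clu the most abundant) to 1313, 1359 and 1052 FPKM. The blood list (5 of 7 genes, Alas2 the most abundant) summed to 14.8, 7.71 and 23.5 FPKM. Of 3 libraries no relation could be tested, and the part of these cells in the levels of the members was not tested.

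**Figure D4:**
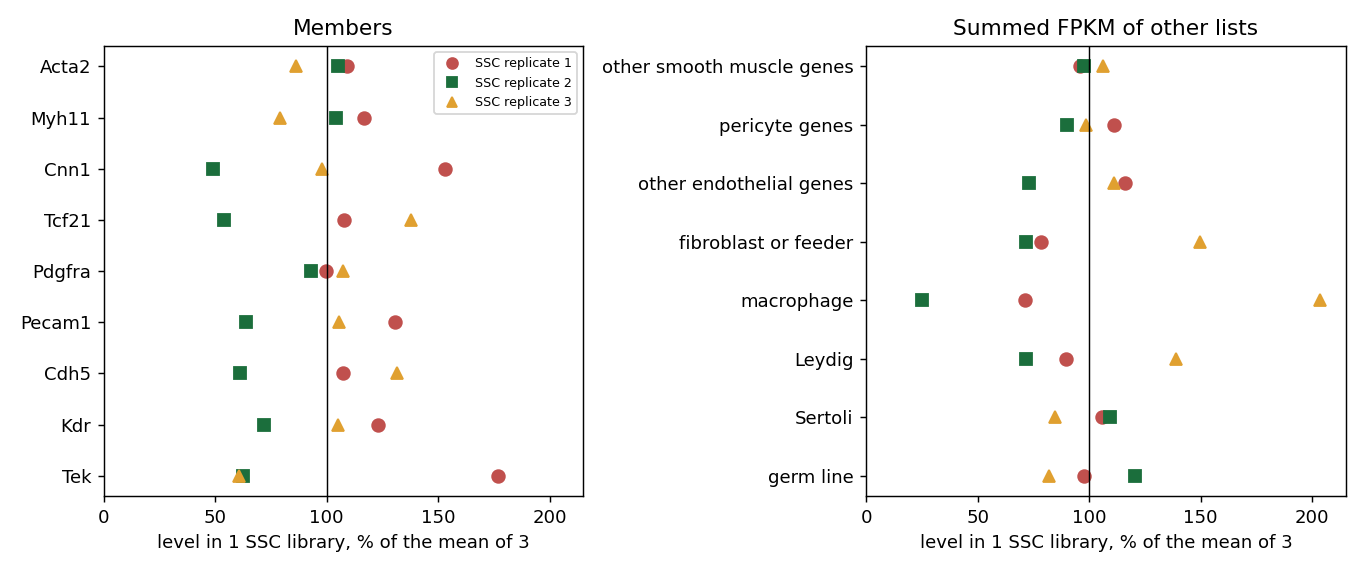
Level in each SSC library as a percentage of the mean of the 3 SSC libraries, for the 9 members (left) and for the summed FPKM of other gene lists (right; red circle, green square and yellow triangle for replicates 1, 2 and 3). Replicate 2 is low for Tcf21, Pecam1, Cdh5, Kdr and the other endothelial genes (72.9%), macrophage genes range from 25.2% to 203.7%, and Acta2 stays between 86.2% and 109.0%.

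The lists of other cell types were counted gene by gene between SSC and iPSC, and no list was tested as a whole. The listed genes are named genes, which were called more often than all loci, as given above. Of all loci tested, 24.1% were lower and 26.2% higher in SSCiPSC, and 23.7% were lower and 28.0% higher in fiPSC. Calls were the same in SSCiPSC and fiPSC for germ line genes (9 lower and 3 higher of 13), Sertoli genes (7 lower and 1 higher of 8), Leydig genes (4 lower of 4) and pluripotency genes (9 higher of 9). Macrophage genes were lower for 5 of 6 in SSCiPSC and 4 of 6 in fiPSC, fibroblast genes were lower for 4 and 5 of 10 with Fn1 higher in both, and of the blood genes 2 and 1 were tested and 0 passed (limma). Leydig genes summed to no more than 0.358 FPKM in any iPSC library, with Lhcgr and Nr5a1 listed at 0 in all 6. Fibroblast genes summed to between 276 and 465 FPKM, most of it from Vim and Fn1, and Col1a2 was at 1.63 to 9.14 FPKM. Fn1 itself was higher in iPSC than in SSC. Beside Pecam1, the members Tek, Cnn1, Acta2 and Pdgfra were detected in the iPSC libraries, while Cdh5, Kdr, Tcf21 and Myh11 were at or near 0, and the part of fibroblast transcripts in these levels was not tested.

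Over the 9 libraries, the genes most like the leading member of each group were found among 7452 named genes with a mean of at least 5 FPKM, by Pearson's r of log2(FPKM + 1), as a description. Acta2 was most like Asz1 (r = 0.989), a germ cell gene of the piRNA pathway, App (r = 0.988) and Pqlc1 (r = 0.987). Pdgfra was most like Vcam1 (r = 0.997), an adhesion molecule of stroma and endothelium, Csf1 (r = 0.996), the macrophage growth factor, and Dst (r = 0.996), a cytoskeletal linker. Pecam1 was most like Tspan13 (r = 0.969), Cers5 (r = 0.967) and Cbx3 (r = 0.966). The points are 3 SSC and 6 iPSC libraries, so each r mostly reflects the step between them.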

How the data were processed

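Total RNA was made into stranded paired-end libraries with an mRNA kit. The labels also name a kit that depletes ribosomal RNA, a step the study's methods do not describe. The authors trimmed, aligned and quantified the reads with Trimmomatic 0.32, TopHat2 2.0.9, Bowtie2 2.1.0, Cufflinks 2.2.1 and Cuffdiff, as the submitters' processing notes name them. The values the authors deposited are FPKM of assembled loci. Those notes name build mm9, but the coordinates match GRCm38, where 92.8% of stranded loci overlap a coding gene of the same strand and 38.3% do after a shift of 1000000 bases. Names printed beside the loci were not used, nor was a second file of feature numbers.

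Of 54914 loci, 1 had a blank value and was left out. A locus was named for a gene when at least 50% of it lay inside the gene on the same strand, or for loci without strand when the overlap was at least 50% of both, and loci that also held another coding gene were not named. For genes with several loci the one with the highest mean over the 9 libraries was taken. Groups were tested in pairs on log2(FPKM + 1), with the 6 libraries of a pair, by limma 3.58.1 (R 4.3.3; eBayes with a trend). Loci needed 1 FPKM or more in 3 libraries, so a locus that reached this in a single group alone could not overlap between the groups. P-values were adjusted by the Benjamini-Hochberg method over all loci tested, and 0.05 was the threshold. An exact permutation test of 3 against 3 libraries cannot go below p = 0.1. The added 1 understates fold changes of low genes.

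Depth was estimated from the steps between low FPKM values, with 150 bases taken off each transcript, so fragment numbers are estimates and cover counting error only. Named genes were all 10 members, the 4 genes with the highest SSC mean of each related list, and all ligands, receptors and family members. One gene of these lists is not reported here. The members, gene lists and tests were chosen with earlier results of these data known. Alternatives were a pseudocount of 0.1, other filters, scalings and fits, the replicate number as a block, other choices of locus, and each library left out. A count with the Tagln interval was added after seeing the data, as was a weight per group of libraries, because false calls ran above the threshold in simulated data whose groups differed in spread. Python 3.11.15, pandas 2.3.3, numpy 2.4.6 and matplotlib 3.10.9 made the tables and plots.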

Additional observations from a re-analysis of the deposited data

How the results depend on the processing

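In each comparison with SSC, between 5 and 8 members passed under 18 alternatives, against 7 as reported. The 5 came from keeping loci whose mean reached 5 FPKM, which left 6 members, and Acta2, Myh11, Cdh5 and Kdr were lower under all 18. Tek passed with 1 locus per named gene and, in SSCiPSC, with all 9 libraries in the fit (adjusted p = 0.0376). Quantile normalization ended the Pecam1 call in both comparisons, and so did leaving out fiPSC replicate 2 in fiPSC. Counting the higher locus of the Tagln interval gave 7 and 8 of 10. Under median-ratio scaling the median over loci went from 0.11 to 0.31 and from 0.17 to 0.36 and the sign of Cnn1 in fiPSC turned (0.063). Between fiPSC and SSCiPSC, 0 members passed under all 18 alternatives (limma), and quantile normalization turned the sign of Pecam1 (0.0251).

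With single libraries left out, the log2 fold change ranged for Cnn1 from -0.6244 to -0.152 in SSCiPSC and from -0.3239 to 0.1486 in fiPSC against SSC, and for Tek from -1.348 to -0.6652 in SSCiPSC and from -1.22 to -0.5373 in fiPSC, the smallest changes of Tek being those without SSC replicate 1. Between fiPSC and SSCiPSC it ranged from -0.4879 to 0.3904 for Acta2, from -0.259 to 0.0622 for Pecam1, from -0.0067 to 0.3141 for Tek and from 0.0931 to 0.4288 for Cnn1. In such fits a group of 2 was assumed to vary like the other.

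The number of all loci past the threshold was 18396, 19680 and 23 in the 3 comparisons, and 10070, 10528 and 10 with a mean of at least 5 FPKM, where fewer loci were tested. With 1 locus per gene it was 7172 of 10337, 7473 of 10447, and 48. Between fiPSC and SSCiPSC it was also 10 without a filter, 11 with all 9 libraries, and 6 to 20 with single libraries left out.

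With the replicate number as a block, 7, 7 and 0 members passed, and 6 loci passed between fiPSC and SSCiPSC. The labels do not say that numbers pair the samples, and the deviations of same-numbered libraries correlated between -0.236 and 0.0214. Members near 1 FPKM rest on few fragments in the SSC libraries.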
